A study of Mus musculus with 6 samples.

Results

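Genes of dietary lipid handling were followed in intestinal crypts that expressed an activated form of YAP. The list holds 39 genes for the uptake, re-esterification and export of fat and for the oxidation of fatty acids. Of these, 37 were measured by a probe set (a group of array probes for one transcript) annotated with a single gene symbol, out of 19938 genes measured in that way. The probe sets of Acsl3 and Apoc2 carry several symbols, and those genes were not analysed here. Where a gene had more than 1 such probe set, the one with the highest mean over all arrays was used.

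RNA came from crypts of 3 control and 3 YAP Tg mice, with 1 Affymetrix array per mouse. By its title the series concerns YAP-S127A and Villin-rtTA. YAP-S127A is a form of the Hippo pathway coactivator that lacks an inhibitory phosphorylation site, and rtTA under the Villin promoter allows doxycycline to switch a transgene on in the gut epithelium. The design text gives doxycycline for 2 days and does not say whether the control mice also received it or carried Villin-rtTA, so effects of the drug, of rtTA and of YAP cannot be told apart. No label gives the strain, the age or the intestinal segment. Titles number the mice, and each array was taken as a separate animal.

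After a meal, fatty acids and monoacylglycerol enter the enterocyte, are carried by small binding proteins to the endoplasmic reticulum, are joined to coenzyme A and are rebuilt into triacylglycerol. The microsomal transfer protein Mttp loads this fat onto apolipoprotein B, and the particle leaves as a chylomicron. Fatty acids that are burned instead cross the mitochondrial membrane through the carnitine shuttle of Cpt1a, Slc25a20 and Cpt2 and are shortened in a repeating cycle of dehydrogenation, hydration, oxidation and thiolysis. Peroxisomes run a similar cycle on long chains, and the nuclear receptor PPAR alpha is a known activator of many of these genes.

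In YAP Tg crypts, 10 of the 37 measured genes fell and 1 rose by limma's test across all genes at an adjusted p below 0.05. The falls lay in fatty acid uptake and binding (Fabp1, Fabp2, Slc27a4), in triacylglycerol synthesis (Mogat2), in mitochondrial oxidation (Cpt1a, Cpt2, Hadh, Acaa2), in peroxisomal oxidation (Ehhadh) and in ketone body metabolism (Bdh1). The rise was that of Apob. The genes that fell made up 27% of those measured, against 6.7% of all genes tested, and the gene that rose made up 2.7%, against 7.5% of all genes. All 3 YAP Tg values lay below all 3 control values for 15 of the 37 (40.5%), against 17% of all genes, and above them for 3 (8.11%), against 16.5%. The list was chosen with earlier results of these data known, so these shares describe it and are no independent test. The median log2 change, always YAP Tg minus control, was -0.24 over the 37 and 0.03 over all genes.

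The 37 were mostly well expressed, with 35 above the median signal of all genes. Among genes above that median, 14.3% were lower and 13.5% higher in YAP Tg crypts, and the same 10 and 1 of the list were called. Leaving out control mouse 1, 2 or 3 reduced the falls to 4 in each case and the rises to 0, while the share of all genes called lower dropped to 1.85%, 2.11% and 2.32%. Fabp2, Cpt2 and Acaa2 kept their calls with any single array left out. Leaving out YAP Tg mouse 1, 2 or 3 gave 9, 11 and 10 falls, against 4.46%, 19.5% and 4.07% of all genes, and Apob was not called without YAP Tg mouse 3.

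**Figure D1:**
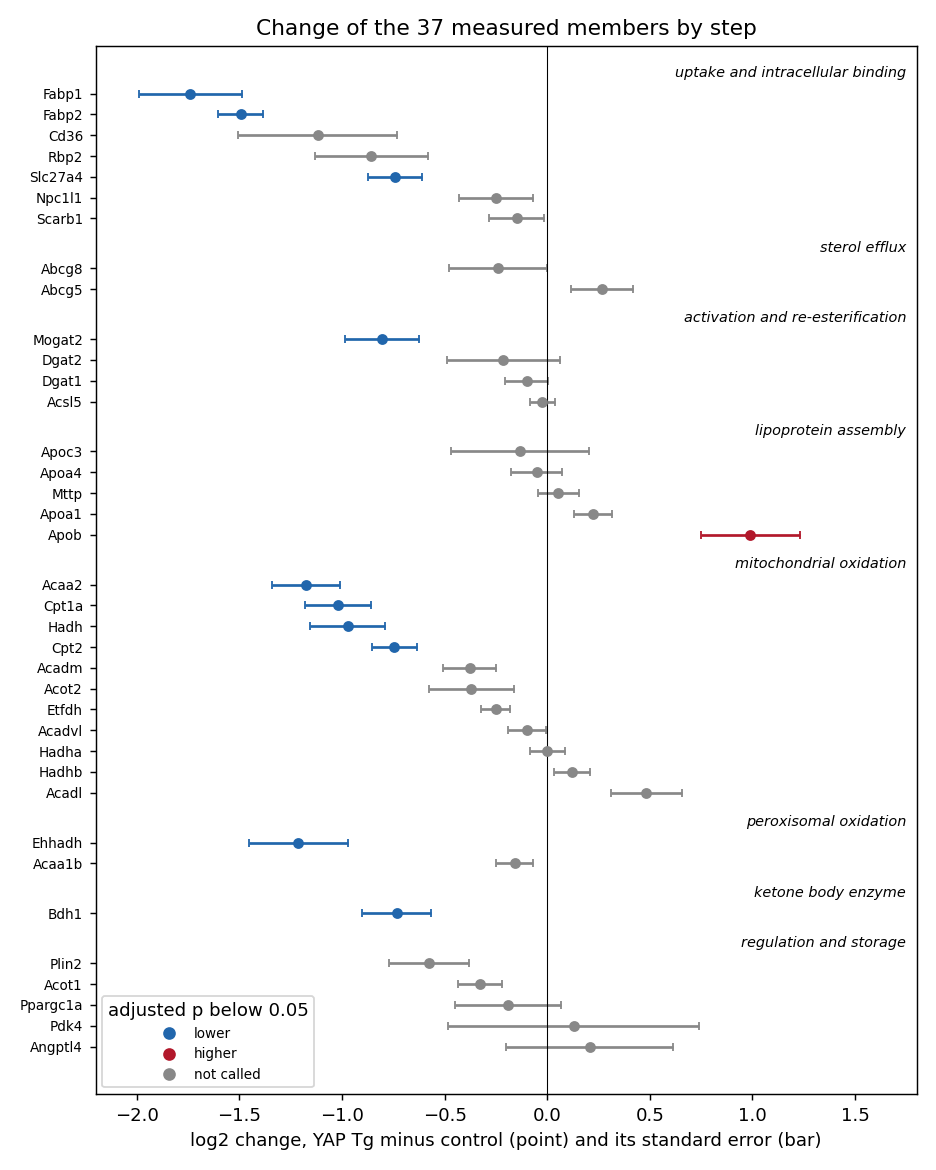
Log2 change (YAP Tg minus control, 3 mice each) of the 37 measured genes, grouped by step, with the standard error as a bar and the call by limma's adjusted p as colour. Fabp1 at -1.74 is the lowest and Apob at 0.99 the highest, and the lipoprotein assembly genes other than Apob lie between -0.13 and 0.22.

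Because lipid genes differ between cell types and along the gut, other markers were read beside them. Of 8 markers of crypt epithelium, 4 fell and 1 rose, with a summed level (log2 of the summed signals) of 14.18 to 14.25 in control and 13.44 to 13.71 in YAP Tg mice. Such a sum mostly follows the genes with the strongest signal. Olfm4 was the strongest of the 8 in control mice, at a mean of 12.96, and averaged 9.77 in YAP Tg mice. The others that fell were Lgr5, Ascl2 and Axin2. Cdh1 rose, at a mean of 11.99 in control and 12.44 in YAP Tg mice, and Epcam, at 11.67 and 11.85, did not pass. Of 11 markers of villus enterocytes, 2 fell and 2 rose, and their summed level was 15.86 to 15.92 in control and 15.75 to 16.09 in YAP Tg mice. All 8 T cell markers rose, with a summed level of 12.76 to 12.99 in control and 14.08 to 14.44 in YAP Tg mice. Of 7 macrophage markers, 4 rose and none fell, and the summed levels overlapped, at 10.03 to 10.40 and 10.15 to 10.46. The macrophage sum is mostly Lyz2, at a mean of 9.79 in control and 9.42 in YAP Tg mice. Lyz2 is the only one of the 7 with a negative change. The 5 adipocyte markers and the 5 endothelial markers included none that passed the test, and the adipocyte genes Adipoq and Fabp4 lay below the median of the presumed array controls (4.97 on control and 5.15 on YAP Tg arrays) in both groups. Among 6 markers of stroma and muscle, Vim alone passed, with a rise of 0.95. Proximal markers spanned 12.46 to 12.72 in control and 11.87 to 12.58 in YAP Tg mice. Of the 7, 1 rose (Slc40a1, from a mean of 8.56 to 10.55) and 1 fell (Cybrd1, from 7.13 to 6.46). The proximal sum in control mice is mostly Lct, which is also counted among the villus markers. Lct averaged 11.68 in control and 9.17 in YAP Tg mice and did not pass. Ileal markers spanned 11.57 to 11.65 and 12.32 to 12.65, with 1 of 6 higher, Slc51b. Slc51a and Slc51b, with control means of 10.37 and 10.40, carry most of the ileal sum. Osr2 went the other way, at a mean of 8.19 in control and 7.16 in YAP Tg mice, and did not pass. The ileal gene Fabp6 lay below the array-control median in both groups. None of 5 colon markers passed, and their summed levels overlapped. The colon sum is mostly Car4, at a mean of 12.87 in control and 12.80 in YAP Tg mice. The part of these shifts in the lipid genes was not tested, and in whole crypts fewer cells of a type and less RNA per cell cannot be told apart.

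The promoters of the genes with the largest falls, Fabp1 and Fabp2, and of the gene that rose, Apob, are printed as the 250 bases before the annotated start (RefSeq, GRCm38.p6, 5′ to 3′ on the gene's strand). Fabp1 is at chr6:71199629-71199878 on the plus strand, Fabp2 at chr3:122894822-122895071 on the plus strand and Apob at chr12:7977427-7977676 on the plus strand. Capitals mark matches on either strand to AGGTCA (a nuclear receptor half-site), to a direct repeat of AGGNCA spaced by 1 base, to CAAAGTCCA (an HNF4 core), to GGAATG (a TEAD site) and to TATAAA.
Fabp1: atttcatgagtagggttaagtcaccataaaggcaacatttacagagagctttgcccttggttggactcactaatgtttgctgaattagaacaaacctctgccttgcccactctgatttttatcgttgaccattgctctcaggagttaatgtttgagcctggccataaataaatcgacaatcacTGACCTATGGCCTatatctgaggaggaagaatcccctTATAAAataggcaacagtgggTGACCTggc
Fabp2: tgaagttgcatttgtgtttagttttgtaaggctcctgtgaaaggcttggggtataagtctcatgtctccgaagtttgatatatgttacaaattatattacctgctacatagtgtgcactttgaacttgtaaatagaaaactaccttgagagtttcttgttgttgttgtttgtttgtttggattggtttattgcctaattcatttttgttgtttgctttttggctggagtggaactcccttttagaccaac
Apob: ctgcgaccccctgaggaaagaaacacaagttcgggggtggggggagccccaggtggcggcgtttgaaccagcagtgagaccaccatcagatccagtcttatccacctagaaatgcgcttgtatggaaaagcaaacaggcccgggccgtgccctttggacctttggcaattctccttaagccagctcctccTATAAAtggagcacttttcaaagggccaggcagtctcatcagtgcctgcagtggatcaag

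The search covered 300 bases per promoter, 250 before and 50 after the start, for 30 of the genes measured. Promoters on chromosome 18, where Acaa2 lies, were left out for the listed genes but not from the shares over all promoters. Mogat2, which fell, and Angptl4, Dgat1, Dgat2, Scarb1 and Apoc3 had no promoter to search. A gene was counted if any of its promoters held a match (32 promoters for the 30 genes), whereas the shares are over single promoters. The direct repeat was found in Fabp1, beginning 67 bases before its start and containing one of its AGGTCA matches, and in 0.381% of 32851 promoters of the table. AGGTCA was found for 8 of the 30 genes and in 16.3% of all promoters. Of the 8 genes that fell and whose promoters were searched, Fabp1 and Cpt1a held it, and so did 6 of 21 genes that were not called (Acadm, Acadvl, Cd36, Npc1l1, Plin2 and Rbp2). GGAATG was found for 7 of the 30 and in 14.7% of all promoters; of the genes that fell, Cpt1a and Ehhadh held it. CAAAGTCCA was found in none of the 30 and in 0.475% of all promoters. TATAAA was found for 5 of the 30, Fabp1 and Apob among them, and in 13.6% of all promoters. Abcg5 and Abcg8, whose windows overlap, share 1 GGAATG and 1 TATAAA site, each counted for both genes.

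At the step of uptake and intracellular binding, 3 of 7 genes fell and none rose, against 6.7% and 7.5% of all genes. The median change was -0.86. Fabp2, the intestinal fatty acid binding protein, read 13.17, 13.15 and 13.21 (log2 signal) in control mice 1 to 3 and 11.86, 11.47 and 11.71 in YAP Tg mice 1 to 3. The control values were tightly grouped and every YAP Tg value was far below them. Its log2 change was -1.49 (SE 0.11, limma's adjusted p = 0.00104), a signal 2.82-fold lower. Fabp1, the liver-type binding protein that the proximal intestine also makes, read 12.49, 12.58 and 12.70 in control mice and 10.58, 10.53 and 11.45 in YAP Tg mice. The groups did not overlap, with YAP Tg mouse 3 nearest the controls. It changed by -1.74 (SE 0.25, limma's adjusted p = 0.00833), or 3.34-fold, and its adjusted p was 0.052 without control mouse 3.

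Slc27a4, the fatty acid transport protein FATP4, read 11.53, 11.56 and 11.58 in control and 10.91, 10.53 and 11.01 in YAP Tg mice, again without overlap. Its change was -0.74 (SE 0.13, limma's adjusted p = 0.0161), which missed the threshold without control mouse 1, 2 or 3 (0.074, 0.0751 and 0.078). Rbp2, the cytoplasmic retinol carrier of enterocytes, read 12.82, 12.87 and 12.98 in control and 12.35, 11.37 and 12.38 in YAP Tg mice. YAP Tg mouse 2 was the low value, and with all mice the difference of -0.86 did not pass (limma's adjusted p = 0.0971). Without that mouse it was smaller and passed (-0.52, adjusted p = 0.00572). Cd36, a scavenger receptor for fatty acids, averaged 9.01 ± 0.40 (SD, n = 3) over control and 7.89 ± 0.73 over YAP Tg mice; the groups overlapped and the difference of -1.12 did not pass (limma's adjusted p = 0.117). Npc1l1, the sterol importer of the brush border, differed by -0.25 (adjusted p = 0.403), and the lipoprotein receptor Scarb1 by -0.15 (adjusted p = 0.497).

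Abcg5 and Abcg8 form a sterol exporter of the brush border, and their divergent promoter windows overlap by 209 bases on chromosome 17. Abcg5 read 11.48, 11.33 and 11.16 in control and 11.57, 11.35 and 11.85 in YAP Tg mice. Abcg8 read 10.74, 10.46 and 10.25 in control and 10.15, 9.86 and 10.72 in YAP Tg mice. For both, the groups overlapped, YAP Tg mouse 2 was the lowest and YAP Tg mouse 3 the highest of its group. The differences were 0.27 for Abcg5 and -0.24 for Abcg8 (limma's adjusted p = 0.285 and 0.546).

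Of the 4 measured genes of activation and re-esterification, 1 fell, against 6.7% of all genes and 14.3% of those above the median signal. Mogat2 makes diacylglycerol from the absorbed monoacylglycerol. It read 12.03, 11.89 and 11.85 in control and 10.87, 10.97 and 11.53 in YAP Tg mice, so all YAP Tg values were lower and mouse 3 was closest to control. The change was -0.80 (SE 0.18, limma's adjusted p = 0.0332). It missed the threshold without control mouse 1, 2 or 3 (0.137, 0.118 and 0.111), without YAP Tg mouse 1 (0.0857) and under quantile normalization (0.0622). Dgat2, one of a pair of enzymes for the last step of triacylglycerol synthesis and the neighbour of Mogat2 on chromosome 7, read 12.14, 12.12 and 11.96 in control and 12.22, 11.20 and 12.15 in YAP Tg mice. Only YAP Tg mouse 2 lay below the controls, and the difference of -0.21 did not pass (limma's adjusted p = 0.638). Dgat1, the other enzyme of the pair, read 12.41, 12.40 and 12.34 in control and 12.41, 12.08 and 12.37 in YAP Tg mice (difference -0.10, adjusted p = 0.569). The acyl-CoA synthetase Acsl5, which activates fatty acids, read 12.45, 12.45 and 12.41 in control and 12.41 in all 3 YAP Tg mice. Its difference was -0.02 (SE 0.06, limma's adjusted p = 0.821), and its sign turned under quantile normalization.

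Among the 5 measured lipoprotein genes, 1 rose and none fell, against 7.5% and 6.7% of all genes. Among genes above the median signal those shares were 13.5% and 14.3%. Apob, the structural protein of the chylomicron, read 11.37, 11.25 and 11.19 in control and 12.77, 11.78 and 12.22 in YAP Tg mice. All YAP Tg values were higher, mouse 1 most and mouse 2 least. It rose by 0.99 (SE 0.24, limma's adjusted p = 0.0443), or 1.99-fold. This call was close to the threshold and was lost without control mouse 1, 2 or 3 (0.133, 0.153 and 0.157) and without YAP Tg mouse 3 (0.131).

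Apoa1, Apoc3 and Apoa4 are neighbours on chromosome 9 and encode apolipoproteins of chylomicrons and high-density lipoprotein. Apoa1 read 13.60, 13.63 and 13.63 in control and 14.02, 13.72 and 13.79 in YAP Tg mice, all above control, yet the difference of 0.22 (SE 0.09) did not pass (limma's adjusted p = 0.174). Apoa4 read 13.72, 13.70 and 13.79 in control and 13.86, 13.43 and 13.77 in YAP Tg mice, with YAP Tg mouse 2 alone below the controls (difference -0.05, adjusted p = 0.815). Apoc3, an inhibitor of lipoprotein lipase, averaged 12.08 ± 0.33 (SD, n = 3) over control and 11.95 ± 0.64 over YAP Tg mice (adjusted p = 0.821). For all 3 neighbours YAP Tg mouse 1 was the highest and YAP Tg mouse 2 the lowest of its group. Mttp read 12.67, 12.55 and 12.59 in control and 12.84, 12.57 and 12.56 in YAP Tg mice, and its difference was 0.05 (SE 0.10, limma's adjusted p = 0.747).

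**Figure D2:**
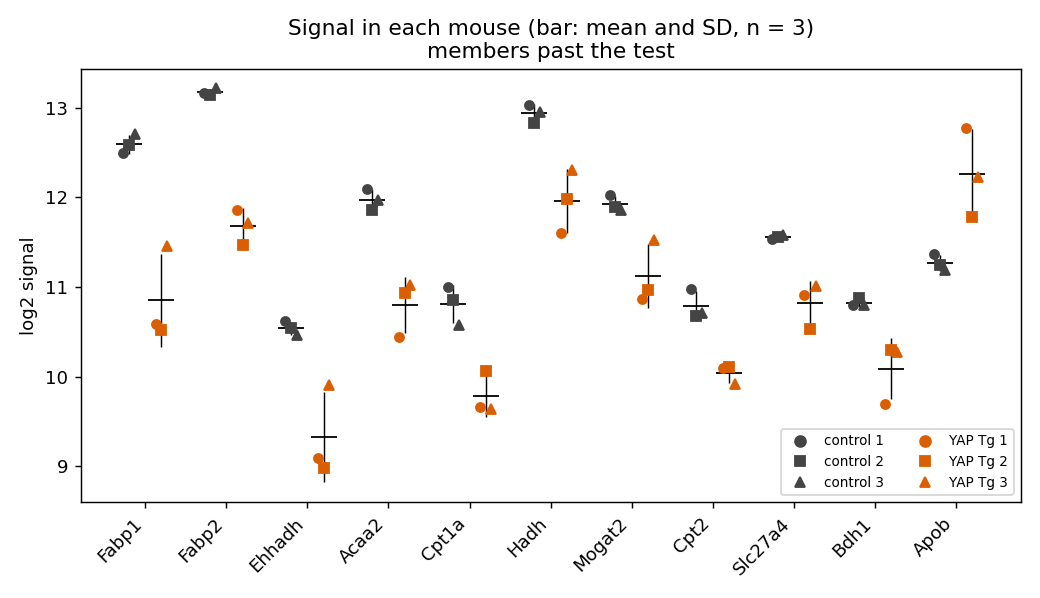
Log2 signal in each mouse for the 11 genes past the test, with the mean and SD (n = 3) as a bar, control in grey and YAP Tg in orange. The groups do not overlap for any of the 11, and the YAP Tg values spread more widely for Fabp1 (SD 0.52 against 0.11) and Apob (0.50 against 0.09).

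Of 11 genes of mitochondrial oxidation, 4 fell and none rose, against 6.7% and 7.5% of all genes. The median was -0.37. Cpt1a, which joins fatty acids to carnitine at the outer membrane and is known as the rate-limiting step, read 11.00, 10.85 and 10.58 in control and 9.66, 10.07 and 9.64 in YAP Tg mice. It changed by -1.02 (SE 0.16, limma's adjusted p = 0.0106), a 2.03-fold lower signal with no overlap, and missed the threshold without control mouse 1 or 2 (0.0552 and 0.0588). Cpt2, which returns the chain to coenzyme A inside, read 10.98, 10.67 and 10.71 in control and 10.10, 10.11 and 9.92 in YAP Tg mice. The YAP Tg mice were close to each other and all below control, and the gene fell by 0.74 (SE 0.11, limma's adjusted p = 0.00865).

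Hadh, the dehydrogenase for shorter 3-hydroxyacyl chains, read 13.03, 12.83 and 12.95 in control and 11.60, 11.98 and 12.31 in YAP Tg mice. The groups did not overlap, and the change was -0.97 (SE 0.18, limma's adjusted p = 0.0189). It was not called without control mouse 1, 2 or 3 (adjusted p = 0.0915, 0.071 and 0.0869). Acaa2, the thiolase that closes the cycle, read 12.10, 11.86 and 11.97 in control and 10.44, 10.93 and 11.03 in YAP Tg mice. Every YAP Tg value was lower, by about the same amount in mice 2 and 3 and by more in mouse 1. The change was -1.17 (SE 0.17, limma's adjusted p = 0.00767), or 2.26-fold.

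The remaining mitochondrial genes did not pass the test. Hadha and Hadhb encode the subunits of the trifunctional protein, which handles long chains, and lie head to head on chromosome 5 with promoter windows that overlap by 228 bases. Hadha averaged 11.56 ± 0.03 (SD, n = 3) over control and 11.56 ± 0.13 over YAP Tg mice, a difference of 0.00 (SE 0.09), and Hadhb differed by 0.12 (SE 0.09; limma's adjusted p = 0.994 and 0.398). For both, YAP Tg mouse 1 was the highest of its group and mouse 3 the lowest. Of the acyl-CoA dehydrogenases, which differ in the chain length they take, the very long-chain enzyme Acadvl differed by -0.10, the medium-chain enzyme Acadm by -0.38 and the long-chain enzyme Acadl by 0.48 (adjusted p = 0.53, 0.111 and 0.124). Acadm was lower in all YAP Tg mice and passed without YAP Tg mouse 3 (change -0.51, adjusted p = 0.0235), while Acadl was higher in all 3. Etfdh, which passes electrons from these enzymes to the respiratory chain, was lower in all YAP Tg mice by a small amount (-0.25, SE 0.07, limma's adjusted p = 0.065). Acot2, a mitochondrial thioesterase, differed by -0.37 (adjusted p = 0.285). It neighbours its close relative Acot1 on chromosome 12, and signals of the pair may be mixed by cross-hybridisation.

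Of the peroxisomal genes, Ehhadh fell. It encodes the bifunctional enzyme of the classical peroxisomal cycle, a known target of PPAR alpha, and read 10.62, 10.54 and 10.47 in control and 9.09, 8.99 and 9.91 in YAP Tg mice. All YAP Tg values were lower, with mouse 3 nearest the controls. The change was -1.21 (SE 0.24, limma's adjusted p = 0.0241), or 2.32-fold, and was not called without control mouse 1, 2 or 3 (0.107, 0.0998 and 0.094) or YAP Tg mouse 1 (0.0747). Acaa1b, a peroxisomal thiolase, read 5.24, 5.09 and 5.22 in control and 5.10, 4.88 and 5.09 in YAP Tg mice. Its mean of 5.02 in YAP Tg crypts lay below the median of the presumed array controls (5.15 there), and its difference was -0.16 (limma's adjusted p = 0.29).

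Bdh1, which interconverts the ketone bodies acetoacetate and 3-hydroxybutyrate, read 10.80, 10.87 and 10.80 in control and 9.70, 10.30 and 10.27 in YAP Tg mice. The groups did not overlap and YAP Tg mouse 1 was the lowest. It changed by -0.73 (SE 0.17, limma's adjusted p = 0.0364), and missed the threshold without control mouse 1, 2 or 3 (0.127, 0.139 and 0.126) or YAP Tg mouse 3 (0.0676).

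**Figure D3:**
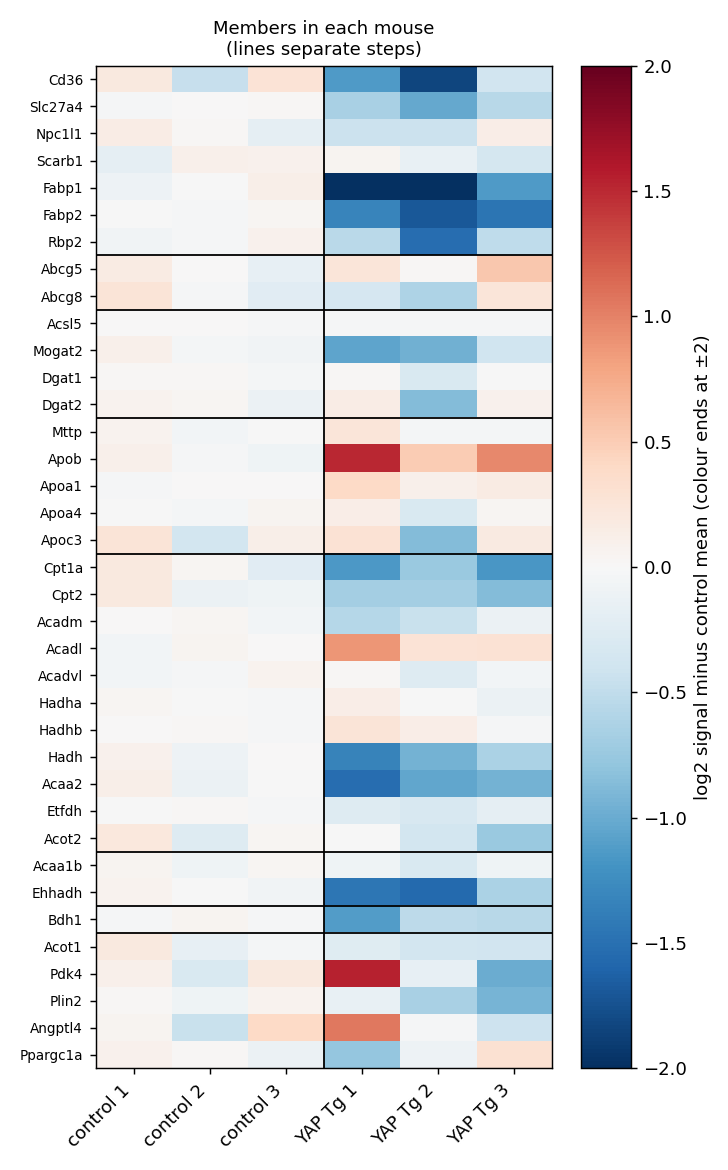
Difference of each gene's log2 signal from its control mean in each of the 6 mice, with genes in rows ordered by step and colour running from blue (lower) to red (higher), ending at ±2. YAP Tg mouse 2 is the lowest of the YAP Tg mice for 19 of the 37 genes, among them Cd36, Rbp2, Dgat2 and the Apoa1, Apoc3 and Apoa4 neighbours.

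The YAP Tg mice differed from each other more than the control mice did. The median SD over the 37 genes was 0.312 in YAP Tg and 0.0909 in control mice, against 0.159 and 0.0823 over all genes. Of the 37, 9 had an SD above 0.5 in YAP Tg mice and none did in control mice. That count was not taken over all genes or over genes of like signal. YAP Tg mouse 1 was the highest of its group for 19 genes and mouse 2 the lowest for 19. The median difference of the 37 from the control mean was -0.14, -0.36 and -0.17 in YAP Tg mice 1, 2 and 3. The uptake genes were lowest in mouse 2 (medians -0.65, -1.52 and -0.51), whereas the mitochondrial oxidation genes were closer together (-0.26, -0.36 and -0.17).

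None of the 5 genes of regulation and storage passed the test. Pdk4 is given in each mouse for its spread, a choice made after its values were seen. This gene encodes a kinase that turns off pyruvate dehydrogenase and is induced in fasting. It read 8.19, 7.78 and 8.28 in control and 9.62, 7.92 and 7.08 in YAP Tg mice. YAP Tg mouse 1 was above every control and mouse 3 below every control, and the difference of the means was 0.13 (SE 0.61, limma's adjusted p = 0.907). Angptl4, a secreted inhibitor of lipoprotein lipase, read 7.36, 6.85 and 7.69 in control and 8.36, 7.28 and 6.88 in YAP Tg mice (difference 0.21, adjusted p = 0.763). Plin2, which coats lipid droplets, read 10.14, 10.03 and 10.19 in control and 9.98, 9.47 and 9.19 in YAP Tg mice. All YAP Tg values of Plin2 were below control, but the difference of -0.58 (SE 0.20) did not pass (limma's adjusted p = 0.113). It passed without YAP Tg mouse 1 (-0.79, adjusted p = 0.0163) and with array weights (-0.68, adjusted p = 0.0246).

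In all 3 of these genes mouse 1 was the highest YAP Tg mouse and mouse 3 the lowest. Ppargc1a, a coactivator of mitochondrial genes, showed the other order, reading 10.04, 9.99 and 9.85 in control and 9.19, 9.85 and 10.26 in YAP Tg mice (difference -0.19, limma's adjusted p = 0.657). Its second probe set kept that order, at 7.57, 8.34 and 8.51 in YAP Tg mice. Acot1, a cytosolic thioesterase, read 6.45, 6.10 and 6.21 in control and 6.01, 5.89 and 5.88 in YAP Tg mice, lower in all 3, with a difference of -0.33 (adjusted p = 0.104).

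**Figure D4:**
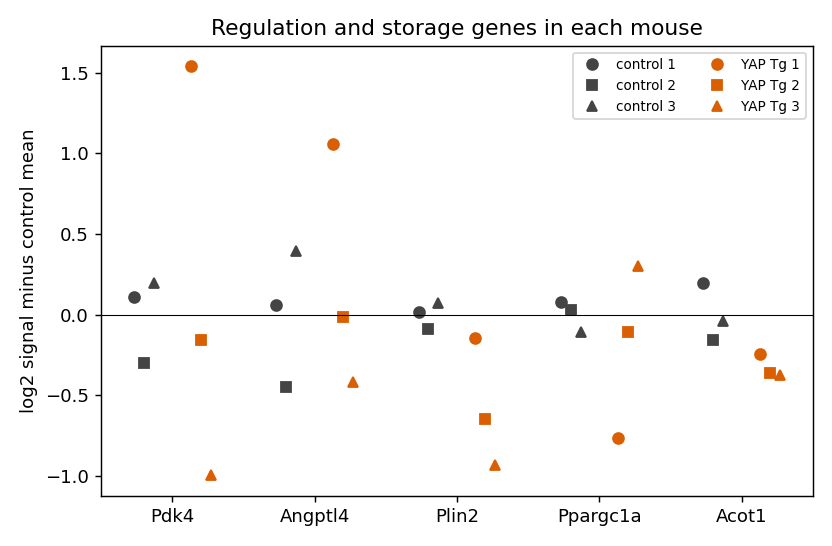
Log2 signal minus the control mean for the 5 genes of regulation and storage in each mouse, control in grey and YAP Tg in orange, with a marker shape for each mouse number. For Pdk4 and Angptl4 the YAP Tg mice lie on both sides of the controls' mean, with mouse 1 highest and mouse 3 lowest, and the group means differ by 0.13 and 0.21.

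A further 96 genes of the same pathways, none of them among the 39, were read from lists by step, and 86 were measured. Of these, 20 fell and 7 rose, where 6.7% of all genes were called lower and 7.5% higher, and the median change was -0.11. These lists too were chosen with earlier results of these data known, so the counts are no independent test. Without control mouse 1, 2 or 3 there were 7, 7 and 11 falls (all genes 1.85%, 2.11% and 2.32%) and 3, 3 and 2 rises (all genes 3.38%, 3.7% and 3.36%). Without YAP Tg mouse 1 there were 17 falls and 4 rises, against 4.46% and 5.72% of all genes. Without YAP Tg mouse 2 there were 27 falls and 14 rises, and the shares over all genes also went up, to 19.5% and 14.1%. With only genes above the median signal kept, there were 21 falls and 8 rises, against 14.3% and 13.5% of all genes kept. The shares of all genes set beside each list below were not matched for signal.

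Of 14 further peroxisomal genes, 5 fell and none rose, against 6.7% and 7.5% of all genes. Hsd17b4, the second bifunctional enzyme of the peroxisome, read 10.49, 10.28 and 10.34 in control and 8.60, 9.31 and 9.20 in YAP Tg mice, without overlap. It fell by 1.34 (SE 0.19, limma's adjusted p = 0.00808). The sterol carrier and thiolase Scp2 changed by -0.96, the thioesterase Acot4 by -0.99 and the peroxisome division factor Pex11a by -0.58 (adjusted p = 0.0053, 0.00482 and 0.00451). All 4 kept their calls with any single array left out.

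Of 19 further mitochondrial genes, 7 fell and 1 rose, against 6.7% and 7.5% of all genes. All 3 YAP Tg values lay below control for 15, against 17% of all genes. The subunits of propionyl-CoA carboxylase, which takes up the product of odd-numbered chains, both fell, Pcca by 1.39 and Pccb by 1.00, and the short branched-chain dehydrogenase Acadsb fell by 0.92 (limma's adjusted p = 0.0118, 0.0192 and 0.0118). Pcca and Pccb were not called without any 1 of the control mice (adjusted p of up to 0.064 and 0.092), nor Pccb without YAP Tg mouse 1 (0.0502). Acadsb was not called without control mouse 1 or 2 (0.0624 and 0.0605). Slc25a20, the carrier that moves acylcarnitines between Cpt1a and Cpt2, went the other way. It read 9.67, 9.54 and 9.64 in control and 11.87, 11.01 and 11.13 in YAP Tg mice, with no overlap, and rose by 1.72 (SE 0.22, limma's adjusted p = 0.0059), or 3.29-fold. This rise passed the test with any single array left out.

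**Figure D5:**
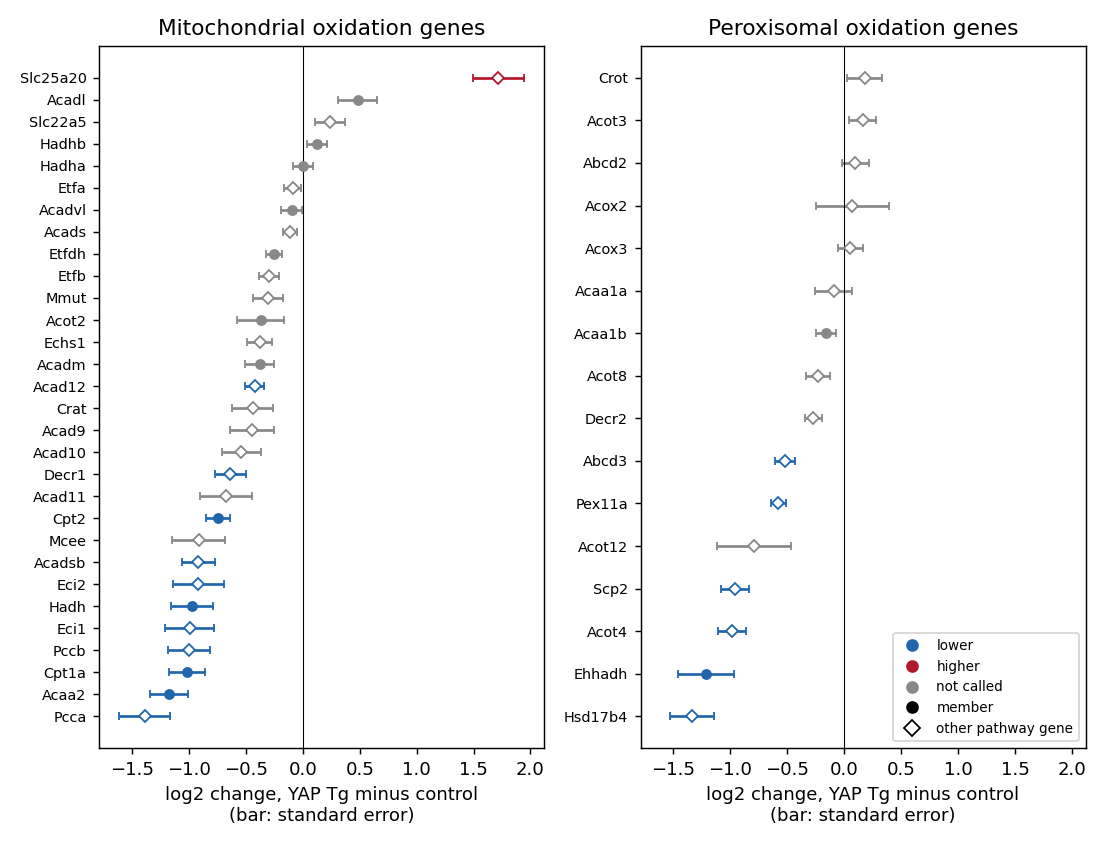
Log2 change (YAP Tg minus control) with its standard error for 30 mitochondrial and 16 peroxisomal oxidation genes, the listed genes as filled circles and the further pathway genes as open diamonds. Slc25a20 at 1.72 is the only one of the mitochondrial genes shown that was called higher, and no peroxisomal gene was.

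Among 17 further genes of uptake, activation and esterification, 4 fell and 1 rose, against 6.7% and 7.5% of all genes. Lrat, which esterifies the retinol that Rbp2 carries, read 9.32, 9.47 and 9.32 in control and 5.90, 6.26 and 7.36 in YAP Tg mice. It changed by -2.86 (SE 0.36, limma's adjusted p = 0.00527), or 7.26-fold, and was lower in all YAP Tg mice. The acyltransferase Agpat3 changed by -1.08 and the transport protein and very long-chain acyl-CoA synthetase Slc27a2 by -0.94, while the acyltransferase Agpat2 rose by 0.74 (adjusted p = 0.0195, 0.0305 and 0.00724). Agpat3 and Slc27a2 were not called without control mouse 1, 2 or 3 (adjusted p of up to 0.0924 and 0.124), nor Slc27a2 without YAP Tg mouse 1 (0.0744).

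Of 13 further chylomicron genes, 2 rose and none fell, against 7.5% and 6.7% of all genes. Among genes above the median signal, where most of the 13 lie, those shares were 13.5% and 14.3%. Cidec, a lipid droplet protein, rose by 1.31 (SE 0.24) and Apoe by 1.16 (SE 0.20; limma's adjusted p = 0.0185 and 0.0144). Apoe is also made by macrophages, of whose 7 markers 4 rose, and the part of those cells in its change was not tested. Neither gene was called without control mouse 1, 2 or 3 (adjusted p of up to 0.0896 and 0.0705), nor Cidec without YAP Tg mouse 1 or 3 (0.0503 and 0.0738). Among 9 genes of lipolysis and droplets, 1 fell and 1 rose, against 6.7% and 7.5% of all genes. The carboxylesterase Ces1d fell by 2.42 and the triglyceride lipase Pnpla2 rose by 0.44 (limma's adjusted p = 0.00713 and 0.0421). Ces1d read 4.91 and 5.13 in YAP Tg mice 1 and 2, below the medians of the presumed array controls on those arrays (5.33 and 5.15), so the size of its fall is uncertain. Pnpla2 lost its call without any 1 control mouse or YAP Tg mouse 1 or 3 (adjusted p of up to 0.145).

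Of the 3 ketone body genes measured, 1 rose, against 7.5% of all genes. Oxct1, the enzyme by which tissues use ketone bodies, read 10.06, 10.73 and 10.24 in control and 11.55, 11.45 and 11.77 in YAP Tg mice, a rise of 1.25 (SE 0.19, limma's adjusted p = 0.00926), where Bdh1 fell. Without control mouse 3 it was not called (0.056).

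Among 11 regulators, 3 fell and 1 rose, against 6.7% and 7.5% of all genes. Ppara, which encodes PPAR alpha, read 9.44, 9.23 and 8.94 in control and 7.17, 8.04 and 7.64 in YAP Tg mice. Its change was -1.59 (SE 0.24, limma's adjusted p = 0.00966), or 3.01-fold, with no overlap, and it missed the threshold without control mouse 1 or 2 (0.0548 and 0.0545). Nr1h3, the sterol-sensing receptor LXR alpha, changed by -1.48 (SE 0.18, limma's adjusted p = 0.00437) and kept its call with any single array left out. Hnf4g changed by -0.74 and Pparg, of the same family as Ppara, rose by 0.85 (adjusted p = 0.0289 and 0.025). Hnf4g and Pparg were not called without control mouse 1, 2 or 3 (adjusted p of up to 0.118 and 0.11) or without YAP Tg mouse 1 (0.0543 and 0.0663), nor Hnf4g under quantile normalization (0.0579). Hnf4a, a master regulator of enterocyte lipid genes, averaged 12.39 ± 0.06 (SD, n = 3) over control and 12.53 ± 0.15 over YAP Tg mice, a difference of 0.14 (limma's adjusted p = 0.385).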

How the data were processed

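Crypt RNA of 6 mice was hybridised to Affymetrix arrays. The authors deposited log2 signals of 35556 probe sets for each array. The submitters' processing notes name Affymetrix Expression Console (1.1). No source used here gives the background correction or normalization, which could change small differences, and the scale was read from the values, which reach 14.4. The 6617 probe sets numbered below the first annotated one were taken as array controls and left out. Of the rest, 21789 carry 1 symbol, 1621 several and 5529 none listed, giving 19938 genes. Differences were tested with limma 3.58.1 under R 4.3.3 (lmFit, eBayes, two-sided, no covariate) and Benjamini-Hochberg adjustment across the 19938 genes, and the fit was tested on simulated data. With 3 arrays per group, their number limits the precision. The members and lists were chosen with earlier results of these data known. All members are given, those called and up to 4 per step in order of p with each array's value, Pdk4 being added; of the further lists, up to 4 called genes with the smallest p are named per list, with Ppara and Hnf4a in any case. P-values set the difference of the group means against the spread between these mice, which limma moderates with all genes. The alternatives left out each mouse or changed the block, scaling, signal filter, prior, weights or probe set summary. Symbols came from the platform annotation; 21698 probe sets matched a RefSeq table of GRCm38.p6, used for names and neighbours.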

Additional observations from a re-analysis of the deposited data

How the results depend on the processing

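Of the 11 listed genes called, Fabp2, Cpt2 and Acaa2 kept their calls in all 12 alternatives run. Leaving out 1 mouse gave 669 to 2802 genes higher and 369 to 3889 lower over all genes, 0 to 1 higher and 4 to 11 lower among the listed genes, and 2 to 14 higher and 7 to 27 lower among the further pathway genes. The labels state no pairing of animals by mouse number. The deviations of same-numbered mice correlated at -0.131, 0.0124 and 0.0983, which cannot show whether they were paired. With the number as a replicate block, 975 genes were higher and 727 lower, 0 listed genes were higher and 7 lower (6 of them among the 11 called without it, and Cd36, adjusted p = 0.0387), and 4 further genes were higher and 13 lower. Array weights gave 2459 genes higher and 3481 lower, 2 listed genes higher and 13 lower, and 11 further genes higher. The causes of these moves were not tested; fewer arrays or residual degrees of freedom enter the first 2 settings.

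None of the 11 called listed genes changed sign in the alternatives run. Among listed genes that were not called, signs turned under quantile normalization for Acsl5 (0.068) and with array weights for Apoa4 (0.021), Apoc3 (0.074), Hadha (-0.044) and Pdk4 (-0.21). With 1 mouse left out, differences ran from -0.162 to 0.0065 for Dgat1, -0.396 to 0.116 for Dgat2, -0.038 to 0.102 for Mttp, -0.138 to 0.080 for Apoa4, -0.345 to 0.236 for Apoc3, -0.065 to 0.061 for Hadha, -0.577 to 0.692 for Pdk4, -0.216 to 0.521 for Angptl4 and -0.438 to 0.096 for Ppargc1a. The filter on signal removed Acaa1b and Acot1.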
